A study of Homo sapiens with 45 samples.

Results

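Expression of 10 autophagy genes, namely MAP1LC3A, MAP1LC3B, GABARAP, GABARAPL1, GABARAPL2, SQSTM1, ULK1, ULK2, ATG9A and WIPI1, was followed in 3 neuroblastoma cell lines treated with palbociclib (PB), an inhibitor of the cell-cycle kinases CDK4 and CDK6. The genes were chosen by symbol, as members of the autophagy machinery, with earlier results of these data known. All 10 were found among the 29159 genes of the deposited count tables. The lines, SK-N-BE(2)C, SH-SY5Y and IMR-32, are used by the study as models of adrenergic (sympathetic neuron-like) tumors. SK-N-BE(2)C and IMR-32 are MYCN amplified, and SH-SY5Y is ALK mutant. Each line was sequenced as control, after 24 h of 1 μM PB and after a longer treatment with PB, which lasted 5 days, or 7 days for SK-N-BE(2)C, with 5 replicates in each of these groups and 45 libraries in all. The study's replicates are separate experiments, each started from its own passage of the line. Controls were harvested alongside the 24 h samples, so longer PB and control also differed in their time in culture, and the effects of 7 against 5 days and of the line cannot be told apart. Because whole cultures were sequenced, fewer cells of a type and less RNA per cell cannot be told apart.

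Autophagy encloses parts of the cytoplasm in a membrane that closes into an autophagosome and delivers them to the lysosome. The kinases ULK1 and ULK2 start the process, ATG9A supplies membrane, WIPI1 binds the lipid PI3P on the growing membrane, and the Atg8-family proteins (the LC3 and GABARAP proteins) are attached to that membrane, where receptors such as SQSTM1, also known as p62, bring their cargo. Neurons depend on this pathway to clear proteins and organelles, because they do not divide.

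Libraries held 13459219 to 25441812 counted reads. Levels are given as CPM, a gene's count scaled to the total of its own library so that libraries of different depth can be compared, and listed replicate values run from replicate 1 to replicate 5. At 24 h the proliferation genes MKI67, CCNE2, MCM2 and RRM2 were lower than in controls in every line, by log2 fold changes of −1.24 to −5.24. After longer PB they were lower than control too, except MCM2 in IMR-32 (−0.37, adjusted p = 0.0802). From 24 h to 5 days all 4 rose in IMR-32 and 3 of 4 in SH-SY5Y, while none of the 4 was called between the treated times in SK-N-BE(2)C. The 8 adrenergic markers were detected in all 3 lines, with a summed level of 2023.7 to 7536.8 CPM, although TH, the rate-limiting enzyme of catecholamine synthesis, stayed under 1 CPM in SH-SY5Y. Of 8 mesenchymal markers 7 were in the count tables, and their summed level was 71.3 to 186 CPM over the control libraries, 23.2 to 39.4 CPM in IMR-32 after 5 days, and 36.4 to 107 CPM in the other 2 lines after longer PB. TWIST2 was at 0 in every SK-N-BE(2)C and IMR-32 library. The blood markers in the tables summed to at most 0.168 CPM. 

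Some libraries stood apart from others of their group by the chi-square of their counts over genes per degree of freedom. IMR-32 replicate 5 was at 55.3 to 86.9 from the other replicates in the control and 24 h groups, with SNAI2, a mesenchymal transcription factor, at 28.2 CPM in the control and 17.3 CPM at 24 h, against 0.0978 to 1.03 CPM in the other control and 24 h libraries. The 24 h library of IMR-32 replicate 2 was at 40.4 to 44.7 from replicates 1, 3 and 4, which were at 3.93 to 9.51 from each other, and without it 3 of 9 autophagy genes were called at 24 h in place of 2, ULK1 being added at a log2 fold change of 0.50. In the control and 24 h groups of SK-N-BE(2)C, replicates 1 and 2 were at 12.8 to 23.6 from replicates 3, 4 and 5, which were at 1.69 to 3.18 from each other. With replicates 3, 4 and 5 alone, 2, 7 and 5 of the 10 genes were called at 24 h, at 7 days and between these times, in place of 3, 7 and 4: MAP1LC3B was not called at 24 h (0.47) and WIPI1 was called lower between the times (−0.69). Within SK-N-BE(2)C the 7-day libraries spread most, with replicates 1, 2 and 3 at 19.3 to 77.8 from each other and from replicates 4 and 5, which were 5.60 apart, and the 5-day library of IMR-32 replicate 5 was at 22.3 to 48.6 from the others. The epithelial marker EPCAM stood at 0 to 0.234 CPM in SK-N-BE(2)C controls and at 0.758 to 2.98 CPM after 7 days. The part of these markers in the changes described here was not tested.

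The 5 Atg8-family genes encode small proteins that a protease of the ATG4 family trims to a glycine near the end, through which they are joined to phosphatidylethanolamine. The last 60 coding bases up to and including this glycine codon are shown, because they hold the site on which the family's function rests and let the 5 genes be told apart (GRCh37, 5′ to 3′ on the coding strand, glycine codon in capitals):
MAP1LC3A, chr20:33147637-33147696, + strand: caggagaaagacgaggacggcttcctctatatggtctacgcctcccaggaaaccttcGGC
MAP1LC3B, chr16:87436626-87436685, + strand: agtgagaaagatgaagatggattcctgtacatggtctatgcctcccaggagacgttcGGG
GABARAP, chr17:7144179-7144238, − strand: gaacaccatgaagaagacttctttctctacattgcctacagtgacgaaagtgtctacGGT
GABARAPL1, chr12:10374386-10374445, + strand: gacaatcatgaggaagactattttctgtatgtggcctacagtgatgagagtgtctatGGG
GABARAPL2, chr16:75611202-75611261, + strand: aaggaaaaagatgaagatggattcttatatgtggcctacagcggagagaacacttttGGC

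After the glycine, 5 codons followed in MAP1LC3B and 1 in each of the other 4 genes. Over the whole coding sequence MAP1LC3A and MAP1LC3B were 73.6% identical and GABARAP and GABARAPL1 76.6%, whereas the other pairs were 51.4% to 63.8% identical. Exact matches in the genome were sought for windows of 100 bases along the exons, untranslated parts included. Of these windows, 2.69% recurred elsewhere for MAP1LC3B, which has a processed copy (MAP1LC3BP1), and 0% for the other 4 genes. Copies that differ by a base within a window were not searched for.

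Groups were compared line by line with the quasi-likelihood F test of edgeR. Calls required an adjusted p under 0.05 (Benjamini-Hochberg, over all genes tested) together with an absolute log2 fold change over 0.5. At 24 h the genes called higher than in controls were GABARAPL1, MAP1LC3B and WIPI1 in SK-N-BE(2)C (3 of 10, where 10.9% of all genes tested were called higher), MAP1LC3B and WIPI1 in IMR-32 (2 of 9 tested, against 7.87%), and GABARAPL1, MAP1LC3A, MAP1LC3B and WIPI1 in SH-SY5Y (4 of 10, against 10.5%). After longer PB they were MAP1LC3A, MAP1LC3B, GABARAP, GABARAPL1, GABARAPL2, ULK1 and WIPI1 in SK-N-BE(2)C (7 of 10, against 24.5%), MAP1LC3B and ULK1 in IMR-32 (2 of 9, against 16.6%), and MAP1LC3A, MAP1LC3B, GABARAPL1 and WIPI1 in SH-SY5Y (4 of 10, against 18.6%). Against control 0 of the 10 genes were called lower in any line at either time. Of all genes, 10.6% were lower at 24 h and 22.3% at 7 days in SK-N-BE(2)C. At 24 h and 5 days these shares were 11% and 17.3% for SH-SY5Y and 10.5% and 15.5% for IMR-32. These comparisons share their control libraries. The list was chosen with earlier results of these data known, so its shares beside those of all genes carry no test. Between the treated times, 4 of 10 were higher at 7 days than at 24 h in SK-N-BE(2)C (17.5% of all genes) and 0 lower (14.4%), and 1 of 10 was higher at 5 days in SH-SY5Y (10.5%) and 0 lower (6.23%). In IMR-32, 0 of 9 were higher at 5 days (10.8% of all genes) and 1 was lower (8.86%).

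By the adjusted p alone, without the limit on the fold change, 7, 9 and 8 of 10 genes passed in SK-N-BE(2)C at 24 h, at 7 days and between these times, where 46.8%, 71.1% and 59.3% of all genes did. In IMR-32 5, 4 and 1 of 9 passed (33.1%, 51% and 34.4% of all genes), and in SH-SY5Y 9, 10 and 5 of 10 (49.2%, 65.4% and 43.5%). All of these were higher at the later or treated time except WIPI1 between 24 h and the longer time in IMR-32 and SK-N-BE(2)C, and ULK2 in SH-SY5Y at 5 days, which were lower. The libraries of the groups compared did not overlap for 7, 8 and 6 of 10 genes in SK-N-BE(2)C (39.3%, 53.8% and 40.4% of all genes), for 3, 4 and 1 of 9 in IMR-32 (23.1%, 39.1% and 23.5%), and for 8, 9 and 3 of 10 in SH-SY5Y (38.5%, 47% and 24.7%), in the same order of comparisons.

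**Figure D1:**
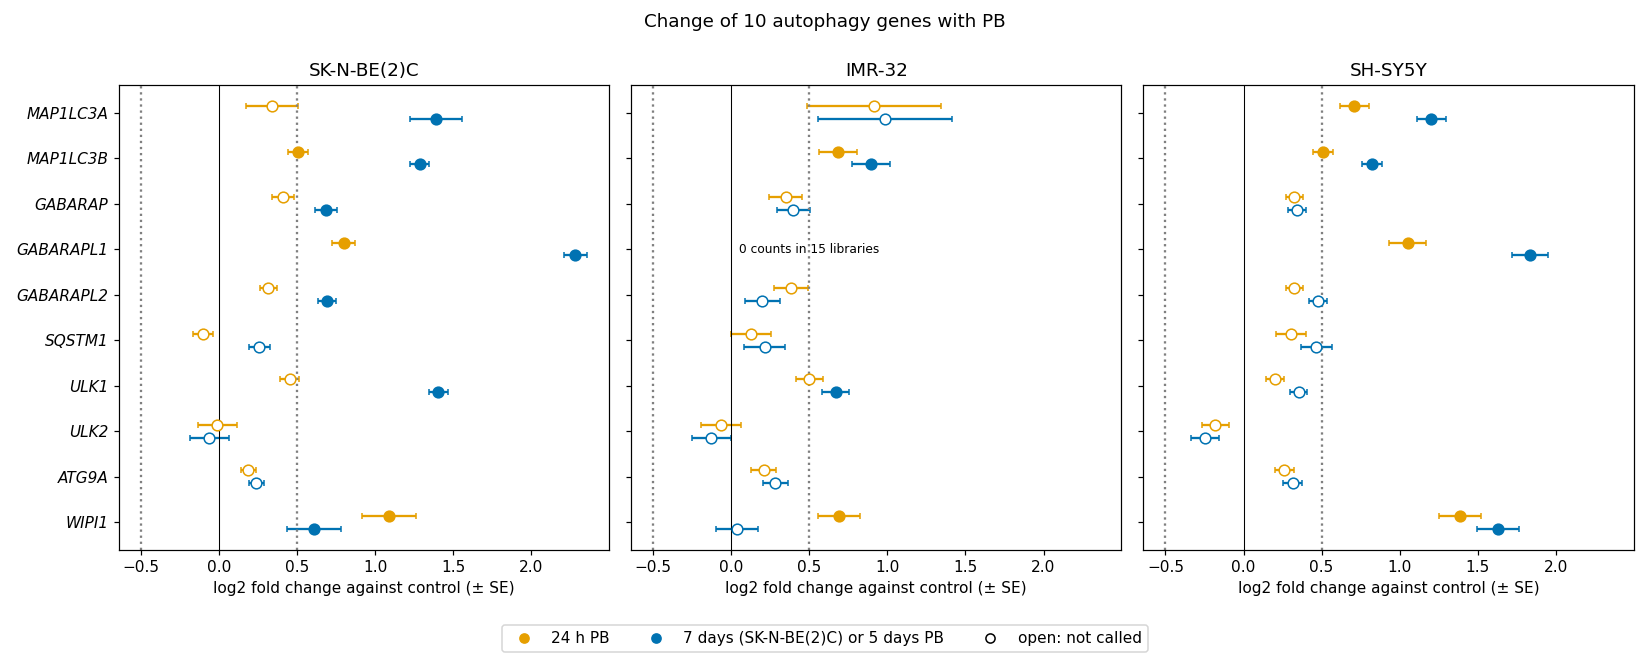
Log2 fold change against control (x axis, ± SE, 5 libraries a group) of each gene (y axis) in each line, at 24 h in orange and after longer PB in blue. Filled points were called and dotted lines mark 0.5 and −0.5. In SK-N-BE(2)C 7 blue points are filled, led by GABARAPL1 at 2.28, while IMR-32 has 2 and no value for GABARAPL1.

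The median log2 fold change of the 10 genes was 0.37 at 24 h and 0.69 at 7 days in SK-N-BE(2)C, where the median of all genes was 0.02 and 0.01. Over the 9 genes tested in IMR-32 it was 0.38 and 0.28 (all genes 0.06 and 0.00), and SH-SY5Y gave 0.33 and 0.47 (all genes 0.04 and 0.01). Among the 5 Atg8-family genes, 2 were called higher at 24 h and 5 at 7 days in SK-N-BE(2)C (all genes 10.9% and 24.5%), and 3 at each time in SH-SY5Y (10.5% and 18.6%). In IMR-32 1 of the 4 tested was called at each time (7.87% and 16.6%).

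**Figure D2:**
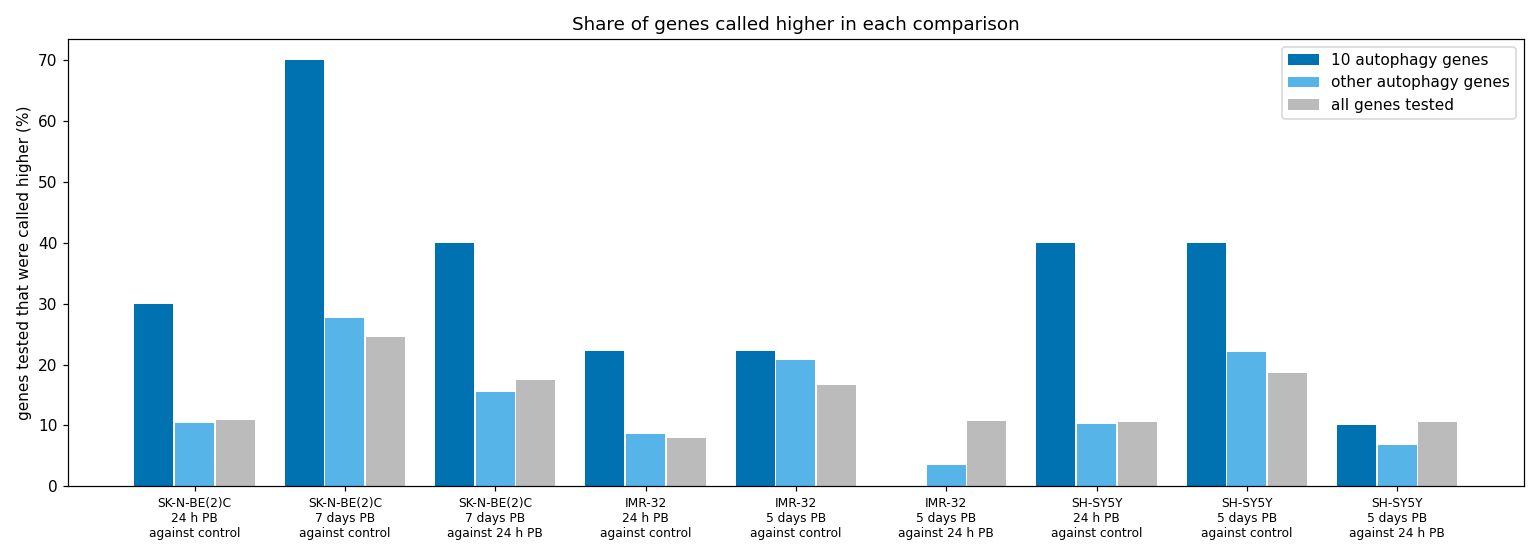
Share of the genes tested that were called higher (y axis, percent, from 0) in each of the 9 comparisons (x axis), for the 10 genes, for the other listed autophagy genes and for all genes tested. The share of the 10 genes is 7 of 10 in SK-N-BE(2)C at 7 days and 0 of 9 in IMR-32 between 24 h and 5 days.

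GABARAPL1 showed the largest changes of the 10 genes in SK-N-BE(2)C after 7 days and in SH-SY5Y after 5 days. It encodes a GABARAP-type Atg8 protein and lies at chr12:10365057-10375727 (GRCh37, + strand). In SK-N-BE(2)C its level was 11.8, 11.8, 13.0, 14.9 and 13.2 CPM in controls, 20.6, 23.2, 23.4, 24.1 and 23.3 CPM at 24 h, and 64.5, 71.5, 58.7, 62.7 and 65.9 CPM at 7 days. The 3 groups did not overlap. It rose by 0.80 ± 0.074 (log2 fold change ± SE) at 24 h (adjusted p = 2.89e-07) and by 2.28 ± 0.074 at 7 days (adjusted p = 1.72e-12). Between these times it rose by 1.48 ± 0.071 (adjusted p = 9.39e-10).

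In SH-SY5Y the GABARAPL1 level was 5.99, 7.21, 5.84, 4.96 and 5.60 CPM in controls, 13.6, 12.0, 13.8, 10.9 and 11.7 CPM at 24 h, and 27.5, 24.4, 20.5, 19.1 and 19.3 CPM at 5 days. Again no library of one group reached another group. The rise was 1.05 ± 0.12 at 24 h (adjusted p = 8.16e-07) and 1.83 ± 0.12 at 5 days (adjusted p = 8.80e-10), and 0.78 ± 0.11 between them (adjusted p = 3.68e-05).

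In IMR-32, GABARAPL1 had 0 counts in all 15 libraries. Taking 3 counts in the smallest of these libraries (15965930 counts) as the limit that a count of 0 allows, its level was under 0.188 CPM, so the mean of SK-N-BE(2)C controls was at least 68.9-fold higher and that of SH-SY5Y controls at least 31.5-fold higher than this limit. Intervals and limits of this kind cover counting error only. Within 500000 bases of the gene on either side, MAGOHB, a component of the exon junction complex, was counted in every IMR-32 library (240 to 691 counts, against 135 to 614 in SK-N-BE(2)C and 140 to 610 in SH-SY5Y). EIF2S3B, in the same interval, had 41 to 85 counts in IMR-32 and 1 to 11 in the other 2 lines. GABARAPL1-AS1, which overlaps 8.1% of the exonic bases of GABARAPL1 on the opposite strand, had at most 1 count in any library.

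MAP1LC3B was the one gene of the 10 called higher in every line at both times. It encodes LC3B, the Atg8 protein commonly used to mark autophagosomes, and lies at chr16:87417559-87438385 (+ strand). In SK-N-BE(2)C it stood at 98.2, 97.6, 106, 103 and 110 CPM in controls, 131, 159, 160, 155 and 143 CPM at 24 h, and 233, 272, 241, 274 and 272 CPM at 7 days, with no overlap between groups. The rise was 0.51 ± 0.061 at 24 h (adjusted p = 5.22e-06) and 1.28 ± 0.062 at 7 days (adjusted p = 6.45e-11), with 0.78 ± 0.061 between the treated times (adjusted p = 4.77e-08).

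In IMR-32, MAP1LC3B stood at 52.9, 55.0, 57.8, 52.8 and 41.1 CPM in controls, 81.2, 88.4, 90.8, 78.3 and 63.9 CPM at 24 h, and 100.1, 117, 92.2, 102 and 75.3 CPM at 5 days. Replicate 5 was the lowest library of each group, and both treated groups lay above the controls while they overlapped each other. The rise was 0.68 ± 0.12 at 24 h (adjusted p = 4.89e-04) and 0.89 ± 0.12 at 5 days (adjusted p = 2.94e-05). From 24 h to 5 days the log2 fold change was 0.21 (adjusted p = 0.184).

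In SH-SY5Y it stood at 86.8, 84.6, 87.6, 72.4 and 81.9 CPM in controls, 122, 127, 126, 114 and 103 CPM at 24 h, and 167, 164, 155, 144 and 138 CPM at 5 days, again with no overlap. MAP1LC3B rose by 0.51 ± 0.066 at 24 h (adjusted p = 4.68e-06) and by 0.82 ± 0.066 at 5 days (adjusted p = 8.99e-09) in this line. From 24 h to 5 days the log2 fold change was 0.31 (adjusted p = 0.00100), under the limit for a call. At 24 h the fold change of MAP1LC3B was so near the limit that it was not called in 15 of 29 alternative settings in SK-N-BE(2)C and in 12 of 27 in SH-SY5Y, with values down to 0.45 and 0.46.

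**Figure D3:**
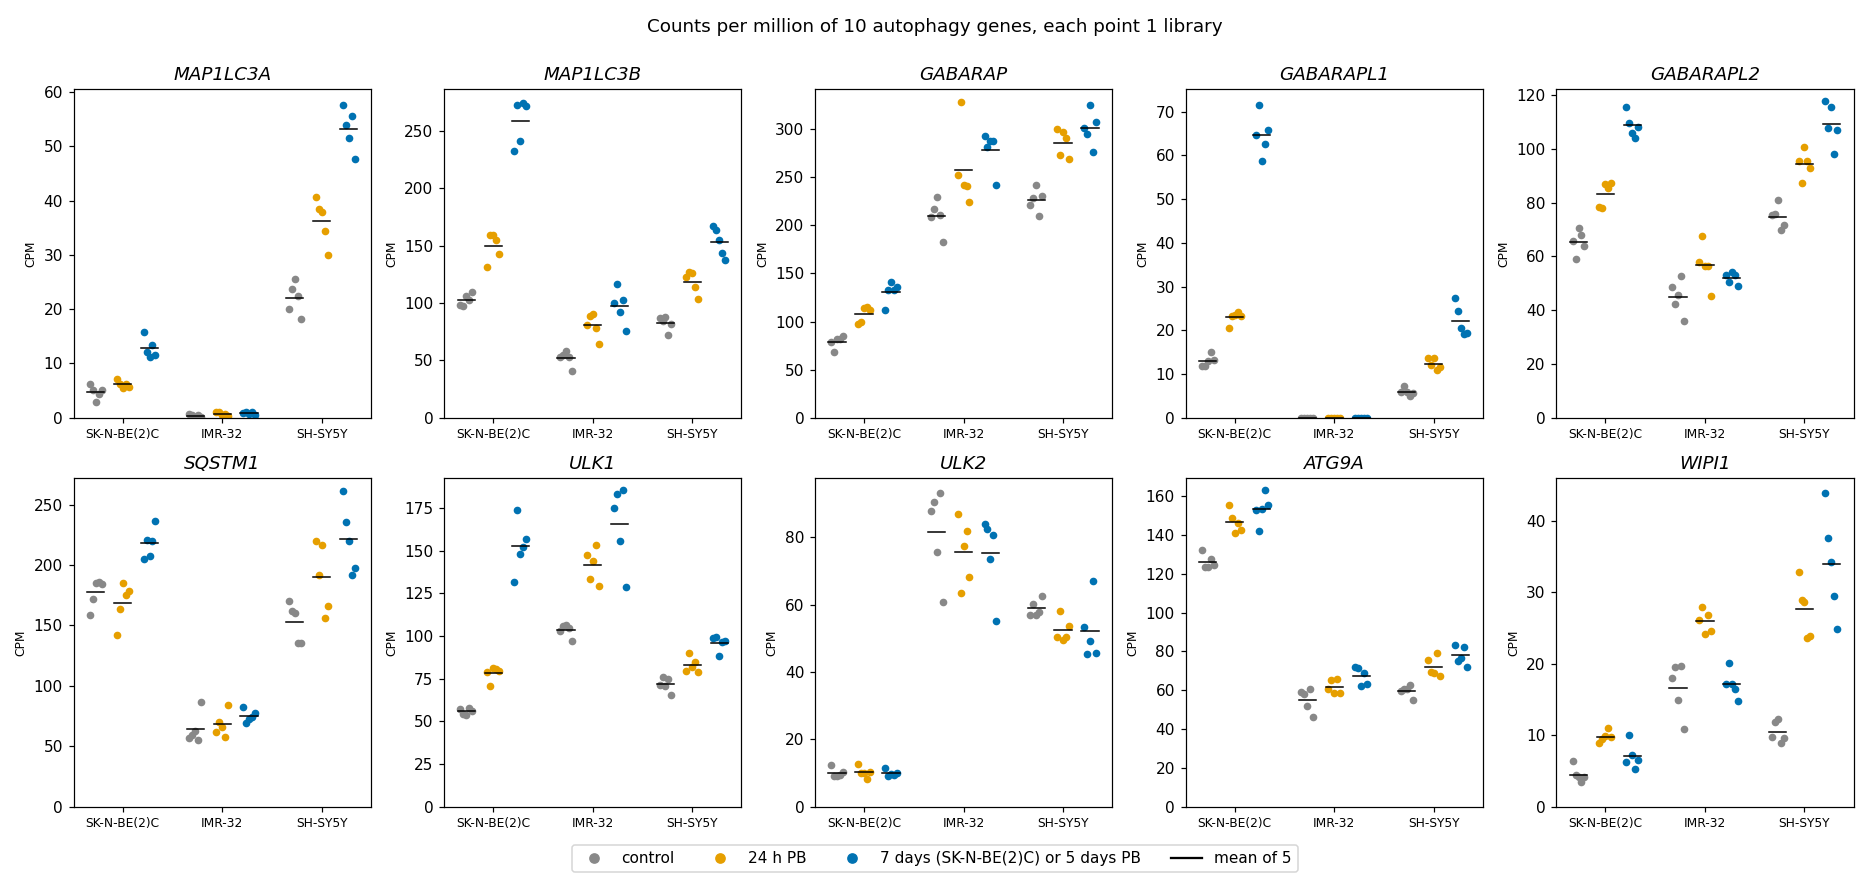
Level of each gene (y axis, CPM, from 0, 1 panel a gene) in each library (points) by line (x axis). Grey is control, orange 24 h PB and blue longer PB, and black bars are means of 5. GABARAPL1 lies at 0 in IMR-32, and WIPI1 is highest after 5 days in SH-SY5Y but at 24 h in the other 2 lines.

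MAP1LC3A, which encodes LC3A and lies at chr20:33134658-33148149 (+ strand), also differed in level between the lines. In SH-SY5Y it had 20.1, 23.7, 25.6, 22.5 and 18.2 CPM in controls, 40.6, 38.5, 38.0, 34.4 and 30.1 CPM at 24 h, and 57.6, 54.0, 51.5, 55.5 and 47.7 CPM at 5 days, with no overlap. It rose by 0.71 ± 0.092 at 24 h (adjusted p = 4.56e-06) and by 1.20 ± 0.092 at 5 days (adjusted p = 5.22e-09) there. From 24 h to 5 days the log2 fold change was 0.49 (adjusted p = 3.31e-04), just under the limit, and it was called in 14 of 27 alternative settings (0.43 to 0.55). In SK-N-BE(2)C controls it had 6.13, 5.13, 2.89, 4.31 and 5.19 CPM, at 24 h 7.09, 6.17, 5.43, 6.25 and 5.72 CPM, and at 7 days 15.8, 12.0, 11.3, 13.3 and 11.6 CPM. The 7-day libraries lay above all the others, whereas those at 24 h overlapped the controls. The log2 fold change in SK-N-BE(2)C was 0.34 at 24 h (adjusted p = 0.113) and 1.39 ± 0.17 at 7 days (adjusted p = 1.41e-06), and the gene rose by 1.05 ± 0.16 between these times (adjusted p = 4.45e-05).

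In IMR-32, MAP1LC3A had 2 to 22 counts a library, or 0.115 to 1.10 CPM, and all groups overlapped. Its log2 fold change was 0.91 ± 0.43 at 24 h (adjusted p = 0.115) and 0.99 ± 0.43 at 5 days (adjusted p = 0.0662). With the replicate number as a block, the log2 fold change of MAP1LC3A in IMR-32 was 0.93 at 24 h (adjusted p = 0.0186) and 1.06 at 5 days (adjusted p = 0.00627), both past the threshold. It also passed in IMR-32 without replicate 5 (adjusted p = 0.0424 and 0.0292), without the 24 h library of replicate 5 (adjusted p = 0.0379 and 0.0412) and, at 5 days, without the 5-day library of replicate 5 (adjusted p = 0.0401). In all, it was called in 3 of 27 alternative settings at 24 h and in 5 of 27 at 5 days, and in most settings it was not.

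GABARAP and GABARAPL2 changed less. GABARAP (chr17:7143327-7145768, − strand) had 68.2 to 85.2 CPM in SK-N-BE(2)C controls, 97.6 to 115 CPM at 24 h and 112 to 142 CPM at 7 days. Both treated groups lay above the controls and overlapped each other. It rose by 0.68 ± 0.069 at 7 days (adjusted p = 1.99e-07) in this line. The other log2 fold changes of GABARAP against control were 0.33 to 0.41, under the limit, and its 5-day libraries lay above the controls in IMR-32 (183 to 230 CPM, then 242 to 293 CPM) and in SH-SY5Y (210 to 242 CPM, then 277 to 325 CPM). A gene on the opposite strand overlaps 12.8% of the exonic bases of GABARAP, and since no source used here states which strand was counted, the reads of both cannot be told apart.

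GABARAPL2 (chr16:75600273-75611779, + strand), also known as GATE-16, had 59.2 to 70.7 CPM in SK-N-BE(2)C controls, 78.0 to 87.4 CPM at 24 h and 104 to 116 CPM at 7 days, with no overlap between groups. It rose by 0.69 ± 0.056 at 7 days there (adjusted p = 1.61e-08). The fold changes stayed under the limit elsewhere, at 0.31 for SK-N-BE(2)C at 24 h, 0.33 and 0.48 for SH-SY5Y, and 0.38 and 0.20 for IMR-32. The value for SH-SY5Y at 5 days (0.48, adjusted p = 8.48e-07) was called in 4 of 27 alternative settings (0.45 to 0.55).

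The kinase pair ULK1 and ULK2, which phosphorylate other autophagy proteins when nutrients are short, moved differently. ULK1 (chr12:132379167-132407695, + strand) had 57.4, 54.3, 53.7, 58.0 and 56.1 CPM in SK-N-BE(2)C controls, 78.8, 70.6, 81.4, 80.6 and 79.5 CPM at 24 h, and 132, 174, 148, 152 and 157 CPM at 7 days, with no overlap. Its log2 fold change was 0.45 at 24 h (adjusted p = 1.43e-05), under the limit, and it rose by 1.40 ± 0.061 at 7 days (adjusted p = 2.86e-11) and by 0.95 ± 0.060 between these times (adjusted p = 6.34e-09).

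In IMR-32, ULK1 had 103, 106, 107, 105 and 97.1 CPM in controls, 147, 133, 144, 153 and 129 CPM at 24 h, and 175, 183, 156, 186 and 129 CPM at 5 days. Every treated library was above every control, with the 5-day library of replicate 5 the lowest treated one. The log2 fold change was just under the limit at 24 h (0.50, adjusted p = 3.93e-04) and was called in 9 of 27 alternative settings (0.45 to 0.53), and ULK1 rose by 0.67 ± 0.086 at 5 days (adjusted p = 1.90e-05). In SH-SY5Y the controls held 65.2 to 75.8 CPM, the 24 h libraries 78.7 to 90.0 CPM and the 5-day libraries 88.3 to 99.6 CPM. The treated libraries lay above the controls there too, with log2 fold changes of 0.20 and 0.35 that were not called.

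ULK2 (chr17:19674142-19771249, − strand) was not called in any comparison, and its log2 fold changes ran from −0.25 to −0.01. It had 8.25 to 12.7 CPM in SK-N-BE(2)C, 55.2 to 93.2 CPM in IMR-32 and 45.3 to 67.1 CPM in SH-SY5Y over all groups. Controls and treated libraries overlapped in every line. This difference in level between the lines was not tested.

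The promoters of the 2 kinases and of WIPI1 are shown as examples of few and many GC boxes, the 6-base motif GGGCGG that Sp-type transcription factors bind. The sequences end just before the transcription start of the RefSeq table (build GRCh38.p14), each matched once in GRCh37 and given with its GRCh37 position, 5′ to 3′ on the gene's strand, with GC boxes on either strand in capitals. That of WIPI1 was shortened by 3 bases at its 3′ end:
ULK1, chr12:132378917-132379166, + strand: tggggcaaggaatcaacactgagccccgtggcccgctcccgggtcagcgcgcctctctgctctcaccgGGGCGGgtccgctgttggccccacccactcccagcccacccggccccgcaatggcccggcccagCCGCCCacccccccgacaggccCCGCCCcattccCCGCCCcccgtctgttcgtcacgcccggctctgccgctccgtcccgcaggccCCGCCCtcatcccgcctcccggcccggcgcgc
ULK2, chr17:19771250-19771499, − strand: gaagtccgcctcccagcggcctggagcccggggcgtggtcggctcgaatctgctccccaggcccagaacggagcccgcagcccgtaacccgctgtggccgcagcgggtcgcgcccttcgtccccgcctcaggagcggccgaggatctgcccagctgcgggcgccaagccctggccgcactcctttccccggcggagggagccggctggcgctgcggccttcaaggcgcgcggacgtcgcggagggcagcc
WIPI1, chr17:66453641-66453887, − strand: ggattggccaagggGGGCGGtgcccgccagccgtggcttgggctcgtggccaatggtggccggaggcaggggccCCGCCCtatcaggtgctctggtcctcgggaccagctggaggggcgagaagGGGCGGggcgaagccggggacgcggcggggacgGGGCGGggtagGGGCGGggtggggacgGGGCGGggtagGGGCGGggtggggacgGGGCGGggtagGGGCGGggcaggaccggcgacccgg

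The 250 bases before the start held 5 GC boxes in ULK1, 0 in ULK2 and 9 in WIPI1. GABARAPL1, with the largest change, held 2, and MAP1LC3B, called in every line, held 3. SQSTM1, which was not called in the main fit, held 2 to 4 at its 3 starts. Of the 250 bases, 250 in MAP1LC3B, 168 in GABARAPL1 and 81 in ATG9A overlapped annotated untranslated sequence. Such overlap was 27 bases at 1 start of SQSTM1, 4 in GABARAPL2 and 3 in WIPI1. Motifs were counted over the whole window, so all those of MAP1LC3B lay in such sequence. Over the 11 starts that the table holds for 9 of the 10 genes, GGGCGG was found at 10 starts and in 8 genes, ULK2 being the gene without it, whereas 55% of all 22093 promoters of this length held it. On both strands, CACGTG (E-box, 7.5% of all promoters), its longer form TCACGTG (the CLEAR core read by TFEB, 4.11%), GTAAACA (FOXO site, 2.43%) and TTTCCCGC (E2F site, 1.79%) matched none of the 11 windows. TGACNNNGC (antioxidant response element, 11.5%) matched 1 window, that of MAP1LC3B, and TGACGTCA (cAMP response element, 2.06%) matched 1, that of GABARAPL1. GGGCGG and TGACGTCA were added after the sequences had been seen. A match is a description of these letters, not a binding site.

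WIPI1 was called higher at 24 h in all 3 lines. It encodes a propeller protein that binds PI3P at the forming autophagosome and lies at chr17:66417089-66453654 (− strand). In SK-N-BE(2)C it had 6.32, 4.48, 4.09, 3.42 and 4.11 CPM in controls, 8.84, 9.51, 9.95, 10.99 and 9.80 CPM at 24 h, and 6.25, 10.1, 7.23, 5.33 and 6.50 CPM at 7 days. The 24 h libraries lay above all controls, but the 7-day libraries overlapped both other groups. WIPI1 rose by 1.09 ± 0.17 at 24 h (adjusted p = 7.53e-05) and by 0.61 ± 0.17 at 7 days (adjusted p = 0.00501). Between these times the log2 fold change was −0.48 (adjusted p = 0.0209), under the limit, and it was called lower in 6 of 29 alternative settings (−0.69 to −0.28). The call at 7 days was lost without the 7-day library of replicate 2, with a log2 fold change of 0.44, and without replicate 2 in all groups, with 0.45.

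In IMR-32, WIPI1 had 18.0, 19.5, 14.9, 19.7 and 10.8 CPM in controls, 26.2, 27.9, 24.1, 26.8 and 24.6 CPM at 24 h, and 17.2, 20.1, 17.2, 16.5 and 14.8 CPM at 5 days. The 24 h libraries stood above both other groups, which overlapped. It rose by 0.69 ± 0.14 at 24 h (adjusted p = 0.00109) and fell by 0.65 ± 0.14 from 24 h to 5 days (adjusted p = 0.00181). At 5 days the log2 fold change against control was 0.04 (adjusted p = 0.833).

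In SH-SY5Y, WIPI1 had 9.71, 11.8, 12.3, 8.87 and 9.62 CPM in controls, 32.8, 29.0, 28.7, 23.6 and 23.9 CPM at 24 h, and 43.9, 37.5, 34.2, 29.5 and 24.8 CPM at 5 days. Both treated groups lay above the controls and overlapped each other. The rise was 1.39 ± 0.14 at 24 h (adjusted p = 1.96e-07) and 1.63 ± 0.14 at 5 days (adjusted p = 1.49e-08), and the log2 fold change between them was 0.24 (adjusted p = 0.134). Genes on the opposite strand, ARSG among them, overlap 28.1% of the exonic bases of WIPI1, so some of its reads are uncertain.

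In the main fit ATG9A and SQSTM1 were not called in any comparison. ATG9A (chr2:220084102-220094439, − strand), a scramblase that moves lipids between the leaflets of the growing membrane, had 123 to 132 CPM in SK-N-BE(2)C controls, 141 to 155 CPM at 24 h and 142 to 163 CPM at 7 days. Both treated groups lay above the controls in this line, but the log2 fold changes of ATG9A against control were 0.18 to 0.31 over the 3 lines, under the limit. SQSTM1 (chr5:179233398-179265078, + strand), the receptor that carries ubiquitinated cargo and is itself degraded in the lysosome, had 159 to 186 CPM in SK-N-BE(2)C controls, 142 to 185 CPM at 24 h and 205 to 237 CPM at 7 days. The 24 h libraries overlapped the controls and the 7-day libraries did not.

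The log2 fold change of SQSTM1 against control at 24 h and after longer PB was −0.10 and 0.26 for SK-N-BE(2)C, 0.30 and 0.47 for SH-SY5Y, and 0.12 and 0.21 for IMR-32. In IMR-32 its control of replicate 5 stood at 87.0 CPM, above the 55.5 to 62.8 CPM of the other controls. In SH-SY5Y it had 135 to 170 CPM in controls and 192 to 261 CPM at 5 days, with no overlap. That log2 fold change of 0.47 (adjusted p = 4.31e-04) was under the limit, and it was called in 4 of 27 alternative settings (0.41 to 0.54). Exons of MGAT4B and MRNIP on the opposite strand overlap 22.4% of the exonic bases of SQSTM1.

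Whether the response differed between lines was tested in 1 fit of all 45 libraries, over 16282 genes. At 24 h the response of 1 gene differed between IMR-32 and SH-SY5Y (4.35% of all genes): WIPI1, by −0.73 ± 0.21 on the log2 scale, the first line minus the second (adjusted p = 0.0372), which was lost without replicate 1, 2, 3 or 4. None of the 10 genes passed at 24 h in the other 2 pairs of lines, SK-N-BE(2)C against IMR-32 (6.89% of all genes) and against SH-SY5Y (3.13%). With an unadjusted p under 0.05 there were 0 in the first of these pairs and 2, ULK1 and SQSTM1, in the second. With the replicate number as a block, SQSTM1 passed in that second pair (adjusted p = 0.00330), and ULK1 passed between IMR-32 and SH-SY5Y.

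After longer PB the responses of 5 genes differed between SK-N-BE(2)C and IMR-32 (34.5% of all genes), 5 between SK-N-BE(2)C and SH-SY5Y (31.6%) and 3 between IMR-32 and SH-SY5Y (30.6%). With 1 replicate number left out, these counts ran from 2 to 5, from 3 to 5 and from 1 to 3. ULK1 rose more in SK-N-BE(2)C, by 0.77 ± 0.094 over IMR-32 (adjusted p = 2.87e-08) and 1.02 ± 0.094 over SH-SY5Y (adjusted p = 9.68e-11), and both held in 9 of 9 alternatives. MAP1LC3B rose more in SK-N-BE(2)C too, by 0.42 ± 0.13 over IMR-32 (adjusted p = 0.00936) and 0.43 ± 0.13 over SH-SY5Y (adjusted p = 0.00834). The first was called in 7 of 9 alternatives, being lost without replicate 3 or 4, and the second in 9 of 9. The response of WIPI1 was larger in SH-SY5Y, by 1.06 ± 0.22 over SK-N-BE(2)C and 1.65 ± 0.21 over IMR-32 (differences of −1.06 and −1.65, adjusted p = 3.26e-04 and 1.27e-07), which held in 9 of 9 alternatives. The difference of GABARAPL1 between SK-N-BE(2)C and SH-SY5Y was 0.42 ± 0.14 (adjusted p = 0.0284) and was called in 6 of 9 alternatives. No difference with IMR-32 can be estimated for GABARAPL1, since all its counts there were 0. With the replicate number as a block, the late response of SQSTM1 also differed in both pairs with SH-SY5Y, from SK-N-BE(2)C (adjusted p = 0.0443) and from IMR-32 (adjusted p = 0.0159), so that 6 and 4 genes passed in these pairs. The days of treatment differed between SK-N-BE(2)C and the other 2 lines, and their part in these differences cannot be told apart from that of the line.

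**Figure D4:**
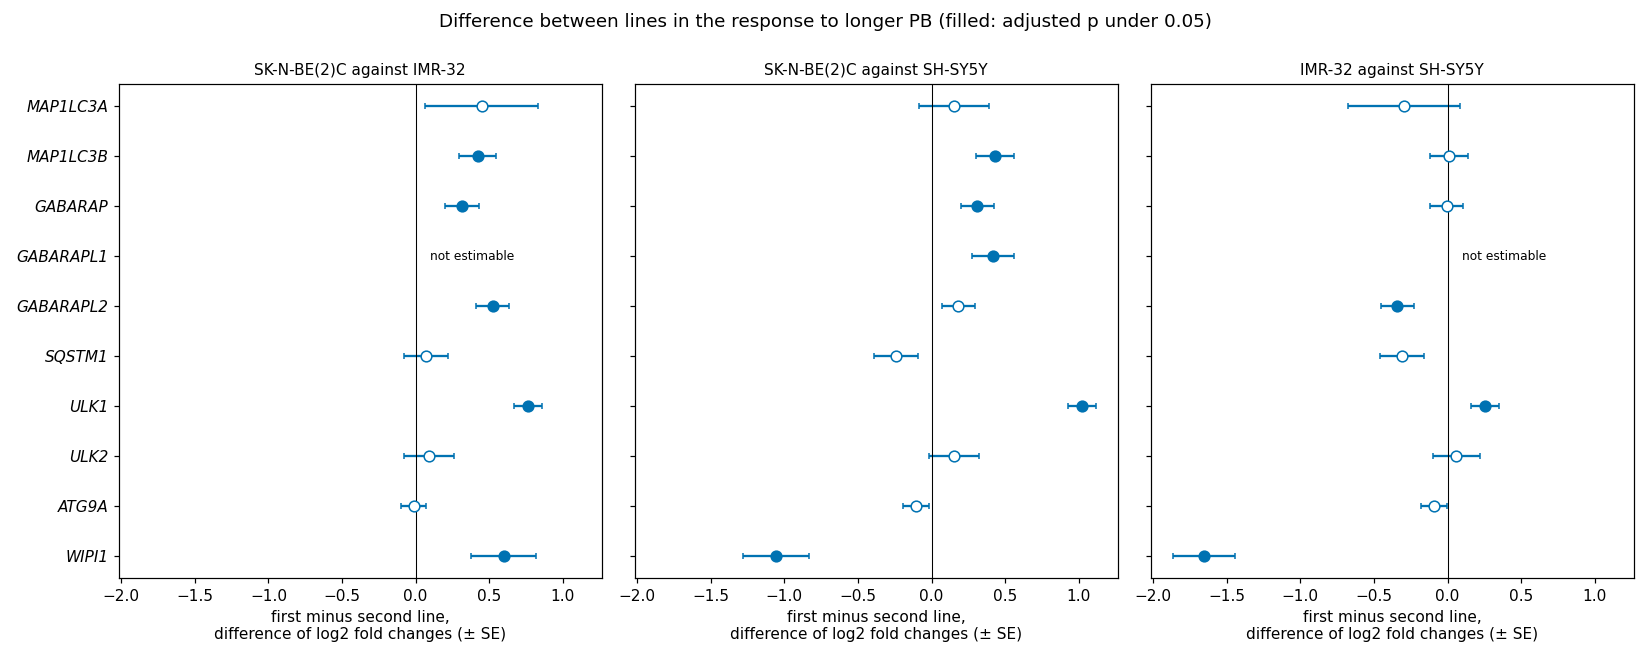
Difference between 2 lines in the log2 fold change of longer PB against control (x axis, first line minus second, ± SE) for each gene (y axis), with filled points at an adjusted p under 0.05. ULK1 lies right of 0 in every pair, and WIPI1 lies left of 0 in both pairs with SH-SY5Y, at −1.06 and −1.65.

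Levels of the genes were set against each other per length, as CPM per kilobase of the union of their exons. GABARAP was the highest of the 10 genes in every group, at 40.6 ± 3.3 (mean ± SD, n = 5) in SK-N-BE(2)C controls, 107.5 ± 8.9 in IMR-32 controls and 116 ± 6.1 in SH-SY5Y controls. In SK-N-BE(2)C controls ATG9A, SQSTM1, GABARAPL2, MAP1LC3B, ULK1, MAP1LC3A, GABARAPL1, WIPI1 and ULK2 followed in this order. The libraries of neighbours overlapped for SQSTM1 and GABARAPL2, GABARAPL2 and MAP1LC3B, MAP1LC3A and GABARAPL1, and WIPI1 and ULK2.

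In IMR-32 controls the order after GABARAP was GABARAPL2, ULK1, ATG9A, MAP1LC3B, SQSTM1, ULK2, WIPI1, MAP1LC3A and GABARAPL1, and 5 pairs of neighbours from GABARAPL2 to ULK2 overlapped. In SH-SY5Y controls it was GABARAPL2, SQSTM1, MAP1LC3A, MAP1LC3B, ATG9A, ULK1, ULK2, WIPI1 and GABARAPL1, with 2 overlapping pairs, SQSTM1 with MAP1LC3A and MAP1LC3A with MAP1LC3B. After 7 days MAP1LC3B was second in SK-N-BE(2)C, at 51.3 ± 4.0 CPM per kilobase against 20.4 ± 1.0 in controls. After 5 days MAP1LC3A was second in SH-SY5Y, at 46.2 ± 3.3 against 19.1 ± 2.5. With the longest transcript in place of the union of exons, 36 of the 90 positions in these orders changed, 14 of them by more than 1, and GABARAP was the highest in 8 of the 9 groups.

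**Figure D5:**
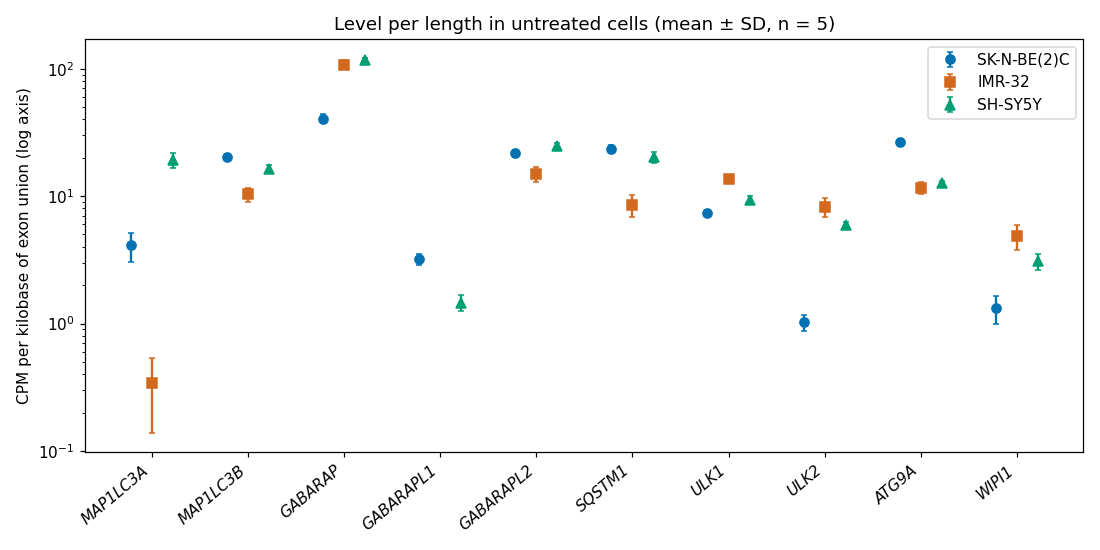
Level of each gene (x axis) in control libraries of each line, in CPM per kilobase of exon (log axis, mean ± SD, n = 5). GABARAP is highest in all 3 lines, MAP1LC3A is lowest of the plotted points in IMR-32 at 0.339, and GABARAPL1 in IMR-32 is at 0 and not drawn.

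The rest of the pathway was read from 62 other autophagy genes, of which 58, 58 and 59 were tested. From here on, values listed for the 3 lines start with SK-N-BE(2)C and end with SH-SY5Y, with IMR-32 between them. At 24 h 6, 5 and 6 of them were called higher and 1, 1 and 1 lower, and after longer PB 16, 12 and 13 higher and 1, 1 and 0 lower. Of all genes, 10.9%, 7.87% and 10.5% were called higher at 24 h and 24.5%, 16.6% and 18.6% after longer PB. Those called lower were 10.6%, 10.5% and 11%, then 22.3%, 15.5% and 17.3%. For the other autophagy genes, the shares called higher lay near those of all genes, and the shares called lower lay below. The median log2 fold change of the other autophagy genes was 0.15, 0.18 and 0.21 at 24 h and 0.31, 0.19 and 0.25 after longer PB. For the 17 cargo receptors, of which 16, 16 and 17 were tested, 3, 3 and 2 were called higher at 24 h (all genes 10.9%, 7.87% and 10.5%) and 7, 4 and 6 after longer PB (24.5%, 16.6% and 18.6%). None was called lower, although by adjusted p alone 2 were lower after 7 days in SK-N-BE(2)C and 1 after 5 days in IMR-32. Of the 3 partners of ULK1 in its complex (ATG13, ATG101 and RB1CC1), 0 were called at 24 h in any line and 1, 0 and 1 were called higher after longer PB (all genes 24.5%, 16.6% and 18.6%).

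Some of the other genes called the same way in all 3 lines are named, with values in the line order just given. CALCOCO1, a receptor for the endoplasmic reticulum, rose by 1.50, 1.09 and 0.99 at 24 h and by 2.85, 1.20 and 1.69 after longer PB, on the log2 scale. WDR45, a PI3P-binding relative of WIPI1, rose by 0.58, 0.89 and 0.67 at 24 h and by 1.26, 1.01 and 1.09 after longer PB. ATG4C, one of the ATG4 proteases, fell at 24 h, with log2 fold changes of −0.51, −0.76 and −0.83, and its libraries overlapped the controls in IMR-32.

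Several more of these genes were called in all 3 lines only at the longer time. The receptors OPTN (2.21, 1.10 and 1.41) and TOLLIP (1.33, 0.70 and 0.59) rose, as did PLEKHM1, an adaptor for fusion with the lysosome (0.70, 0.70 and 0.97). RUBCN rose by 0.85, 0.51 and 0.63, and it is known as an inhibitor of autophagosome maturation.

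Among 17 regulators of autophagy (16, 16 and 17 tested), 3, 2 and 3 were called higher and 2, 0 and 0 lower at 24 h, and 5, 6 and 6 higher and 1, 2 and 0 lower after longer PB. The shares of all genes called higher were 10.9%, 7.87% and 10.5%, then 24.5%, 16.6% and 18.6%, and those called lower 10.6%, 10.5% and 11%, then 22.3%, 15.5% and 17.3%. FOXO3, a transcription factor known to act on autophagy genes, rose after longer PB by 1.40, 0.81 and 0.98.

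SQSTM1 is also known as a target of the antioxidant factor NRF2, and 11 genes of that pathway were listed: NFE2L2, which encodes NRF2, its inhibitor KEAP1, and 9 NRF2 targets. Of the 11, 0 were called higher against control in any line, while 2, 1 and 2 were called lower at 24 h (all genes 10.6%, 10.5% and 11%) and 3, 1 and 4 after longer PB (22.3%, 15.5% and 17.3%). SLC7A11, the cystine transporter, fell at 24 h, with log2 fold changes of −1.31, −2.55 and −0.83. After longer PB its log2 fold changes against control were 0.27, −0.20 and −0.75, called in SH-SY5Y alone, and between the treated times it rose by 2.34 in IMR-32 and by 1.58 in SK-N-BE(2)C. NQO1, a quinone reductase, fell after longer PB, with −2.22, −1.61 and −1.21. Of 20 lysosomal genes, 3, 5 and 4 were called higher and 0 lower at 24 h, where 10.9%, 7.87% and 10.5% of all genes were higher, and 11, 8 and 6 higher and 1, 1 and 0 lower after longer PB, where 24.5%, 16.6% and 18.6% were higher. They included GAA, the lysosomal glucosidase (1.25, 0.84 and 0.70 at 24 h), SGSH, a sulfohydrolase of heparan sulfate breakdown (1.22, 1.05 and 1.02 after longer PB), and MCOLN1, a lysosomal calcium channel (1.28, 0.92 and 0.65 after longer PB).

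MAP1LC3B was the gene most often called, in 7 comparisons. GABARAPL1, untested in IMR-32, was called in 6, every one in which it was tested. The pattern of MAP1LC3B over the 15 libraries of each line was compared with that of 11621 genes by Pearson's correlation of log2(CPM + 1), averaged over the lines. The closest were KLHL7 (mean r = 0.977), ZER1 (0.971), PPP2R5B (0.970), BSDC1 (0.969) and SERINC1 (0.969). The 15 points of a line share its 3 groups, so these values describe a common pattern over groups and carry no test.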

How the data were processed

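The authors sequenced strand-specific libraries of polyA RNA in pairs, trimmed reads with Trim Galore (0.6.4 in the submitters' processing notes), aligned them to hg19 with STAR (2.6.1d in those notes) and counted reads per gene. The annotation and strand used in counting: not given in the sources used here. Raw counts were deposited by the authors, and the CPM values deposited by the authors scale them to each library's total. The authors' tables of DESeq2 1.32.0 log2 fold changes and adjusted p-values were deposited too and not used.

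Analyses used edgeR 4.0.16 under R 4.3.3 (filterByExpr with at least 10 counts, 15 in total and a share of 0.7, TMM factors, robust quasi-likelihood fit, 15 libraries of a line, 1 mean per group). SE is the absolute log2 fold change over the root of its F value. Line differences came from 1 fit of 45 libraries. The main test was tried on simulated data, its limit on false calls having been loosened after a first run. Alternatives were RLE or library-size scaling, no filter, adjusted p alone, the 2 groups compared alone, DESeq2 1.42.0, the replicate block, libraries left out, and transcript length. Genes and positions follow GENCODE 44 on GRCh37. All 10 genes are named, and of other listed genes those called alike in all 3 lines, at most 4 per list by mean absolute log2 fold change, of which some are printed and others are not reported here. The genes and lists were chosen with earlier results of these data known. Paired replicate numbers: after group means were removed, same-numbered libraries correlated above 0.1 in every pair in 6 of 9 comparisons, IMR-32 at 5 days against control among them (lowest r = 0.135). At 24 h against control r was 0.415 to 0.667 in SK-N-BE(2)C, 0.0695 to 0.875 in IMR-32 and 0.323 to 0.525 in SH-SY5Y. The main fit did not use this pairing. No protein sequences were used.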

Additional observations from a re-analysis of the deposited data

Results flagged for a closer look

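Of 87 sets of 5 libraries examined (a gene in a group), 6 held a library far from the other 4 by Dixon's criterion, which chance gives in about 1 set in 20. These were GABARAPL1 in SK-N-BE(2)C at 24 h (replicate 1, 20.6 CPM, nearest other 23.2 CPM) and ULK1 in the same group (replicate 2, 70.6 CPM, nearest other 78.8 CPM). They also included GABARAP in IMR-32 at 24 h (replicate 2, 328 CPM, nearest other 253 CPM) and at 5 days (replicate 5, 242 CPM, nearest other 282 CPM). SQSTM1 in IMR-32 controls stood high in replicate 5 (87.0 CPM, nearest other 62.8 CPM), and ULK1 in SH-SY5Y at 5 days stood low in replicate 3 (88.3 CPM, nearest other 96.7 CPM).

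In 14 cases the response of a gene differed between 2 lines by the test of the difference itself, edgeR's quasi-likelihood F test. At 24 h this was WIPI1 between IMR-32 and SH-SY5Y (−0.73, the first line minus the second on the log2 scale). After longer PB, for SK-N-BE(2)C minus IMR-32, the differences were 0.77 for ULK1, 0.60 for WIPI1 (adjusted p = 0.0337), 0.52 for GABARAPL2 (adjusted p = 3.49e-04), 0.42 for MAP1LC3B and 0.32 for GABARAP (adjusted p = 0.0276). Between SK-N-BE(2)C and SH-SY5Y they were 1.02 for ULK1, −1.06 for WIPI1, 0.43 for MAP1LC3B, 0.42 for GABARAPL1 and 0.31 for GABARAP (adjusted p = 0.0331). Between IMR-32 and SH-SY5Y they were −1.65 for WIPI1, −0.34 for GABARAPL2 (adjusted p = 0.0184) and 0.25 for ULK1 (adjusted p = 0.0354). Of these 14, both WIPI1 differences with SH-SY5Y after longer PB, both ULK1 differences with SK-N-BE(2)C, the MAP1LC3B difference of SH-SY5Y from SK-N-BE(2)C and the GABARAPL2 difference of IMR-32 from it were called in 9 of 9 alternatives, and the other 8 in 5 to 7.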

How the results depend on the processing

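The 87 fold changes of the 10 genes were recomputed in 2409 settings: 2310 kept the call or its absence, 29 lost the call, 70 gained it and 0 reversed a call. The sign of uncalled values near 0 could turn, as for ULK2 in SK-N-BE(2)C at 24 h (−0.11 to 0.079). By adjusted p alone, the 10 genes called numbered 7 at 24 h and 8 between the treated times in SK-N-BE(2)C, 5 and 4 against control in IMR-32, and 9, 10 and 5 in the 3 SH-SY5Y comparisons, where the limit on the fold change gave 3, 4, 2, 2, 4, 4 and 1. The other autophagy genes tested numbered 31, 47 and 30, then 30, 37 and 14, then 37, 41 and 24. With the limit they numbered 7, 17 and 11, then 6, 13 and 2, then 7, 13 and 5. Of all genes, 46.8%, 71.1% and 59.3%, then 33.1%, 51% and 34.4%, then 49.2%, 65.4% and 43.5% passed by the adjusted p alone. With the limit, 17.5%, 10.8% and 10.5% of all genes were higher between the treated times and 14.4%, 8.86% and 6.23% lower.

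Between the treated times in SH-SY5Y, 2 of the 10 genes were called under RLE factors, library size alone, no filter or DESeq2, the addition being MAP1LC3A, whose log2 fold change lay at the limit (0.49). With the replicate block, 4 other autophagy genes were called between the treated times in IMR-32, as with DESeq2, and the responses of 1 gene (SK-N-BE(2)C against SH-SY5Y) and 2 genes (IMR-32 against SH-SY5Y) differed at 24 h.

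With libraries left out, the 10 genes called numbered 2 to 3, 6 to 7 and 4 to 5 in SK-N-BE(2)C (24 h, longer, between), in IMR-32 2 to 4, 2 to 3 and 1 to 1, and in SH-SY5Y 3 to 4, 4 to 6 and 1 to 2. The other autophagy genes numbered 6 to 7, 16 to 20 and 9 to 12, then 4 to 7, 11 to 14 and 0 to 5, then 6 to 8, 9 to 15 and 3 to 6. In IMR-32, 4 of the 10 genes were called at 24 h without the 24 h library of replicate 5. Between the treated times there, 0 other genes were called without the 24 h library of replicate 2 and 4 without any 1 library of replicate 5, and in SH-SY5Y 3 without the 5-day library of replicate 1. Response differences numbered 0 to 0 and 2 to 5 (SK-N-BE(2)C against IMR-32, 24 h and longer), 0 to 0 and 3 to 5 (against SH-SY5Y), and 0 to 2 and 1 to 3 (IMR-32 against SH-SY5Y). They fell to 2 without replicate 3 or 4 and 3 without replicate 2 in the first pair, to 3 without replicate 2 or 3 in the second, and to 1 without replicate 1, 3 or 4 in the third. The cause was not tested. The values of MAP1LC3A in IMR-32 rest on few counts (2 to 22 a library).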
